A study of Mus musculus with 12 samples.

Results

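The tricarboxylic acid cycle was examined through 9 of its nuclear-encoded mitochondrial enzyme genes, Cs, Idh3a, Idh3b, Idh3g, Ogdh, Dlst, Suclg1, Fh1 and Mdh2, in whole kidneys of mice with or without a proximal tubule deletion of Fan1. FAN1 is a nuclease that acts in the repair of DNA interstrand crosslinks, and cisplatin is a drug that forms DNA adducts, interstrand crosslinks among them. The genes were picked as enzymes of the cycle and found by their NCBI Gene numbers among the 27179 genes of the deposited table. All 9 were present and all 9 passed the filter on low values, which kept 14972 genes for testing.

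The 12 libraries came from 12 kidneys in 4 groups of 3 mice, all labelled as 8 to 12 weeks old and of a mixed strain background. The study's methods describe its FAN1KO mice as backcrossed to 129Sv-Elite, and the labels do not say how this applies to the sequenced mice. Wildtype mice and {Gamma}GT1-Cre;Fan1-/- mice, called FAN1KO below, received either saline or cisplatin by weekly intraperitoneal injection, with cisplatin given at 2 mg/kg for 5 weeks. The Cre transgene is driven by the gamma-glutamyl transferase promoter, which is active in proximal tubule cells. By this design the other cells of a FAN1KO kidney should keep Fan1, which was not checked here. The whole kidney was sequenced, and in such bulk RNA fewer cells of a type and less RNA in each of those cells cannot be told apart.

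The cycle oxidises the acetyl group of acetyl-CoA in the mitochondrial matrix and hands the electrons, as NADH and reduced flavin, to the respiratory chain. Citrate synthase makes citrate from acetyl-CoA and oxaloacetate. A chain of further enzymes, among them dehydrogenases, a ligase and fumarase, then regenerates oxaloacetate. Proximal tubule cells reabsorb most of the filtered solutes, are packed with mitochondria and draw their ATP mainly from oxidative metabolism.

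Reads per library, recovered from the whole-read steps in the TPM, ran from 37201916 to 82947186, and each of the 9 genes held 4911 to 48509 of them in every library, so that counting error was at most 1.43% of a value. Between the 3 mice of a group these genes had coefficients of variation of 0.983% to 17.6%, and it is this larger spread that the tests use. Fan1 itself was at 1.98 to 3.80 TPM in wild-type saline, 1.17 to 2.28 in FAN1KO saline, 2.33 to 3.57 in wild-type cisplatin and 1.55 to 3.51 in FAN1KO cisplatin kidneys. These ranges overlap between genotypes, and a whole-gene level in whole kidney, where only some cells are meant to carry the deletion, does not check the genotype labels. In each group 1 library had high RNA from 4 Y-linked genes (mean log2(TPM + 1) of 3.46 to 3.93, against at most 0.10 in the other 8), so each group held 1 library of that kind and no group differed from another in their number.

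The TPM scale divides reads by transcript length and by the library's total. Levels of different genes can then be set side by side, but they depend on an annotation that is not stated. Between kidneys TPM are shares of a total. The median ratio of genes ran from 0.767 in FAN1KO saline mouse 1 to 1.35 in FAN1KO cisplatin mouse 1. In wild-type saline kidneys Mdh2 was the highest of the 9 genes at 657 ± 31.4 TPM (SD, n = 3). Suclg1 followed at 494 ± 26.6, Idh3g at 449 ± 9.82 and Idh3b at 416 ± 15.2 TPM, and the ranges of these 4 genes did not overlap from each to the next. Dlst at 306 ± 22.3 and Fh1 at 279 ± 14.9 TPM overlapped each other. Cs at 168 ± 16.8, Ogdh at 151 ± 11.0 and Idh3a at 126 ± 22.3 TPM were the lowest and overlapped from each to the next. The order of the 9 means was the same in all 4 groups. Idh3a encodes the catalytic subunit of NAD-dependent isocitrate dehydrogenase, and its RNA stood at 0.304 ± 0.0557 of that of Idh3b, which encodes a regulatory subunit.

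Cisplatin-treated kidneys of the 2 genotypes were compared first, since this asks how the loss of Fan1 changes the kidney under cisplatin. RNA of 6 of the 9 cycle genes, Idh3b, Idh3g, Ogdh, Dlst, Suclg1 and Fh1, was lower in FAN1KO than in wild-type kidneys, by 18.9% to 31.7% of the wild-type mean, and none was higher. Cs, Idh3a and Mdh2 did not pass the test. Among all genes tested 4.37% were called lower in this comparison and 19.6% higher, so the 9 genes went against the more common direction. Calls are at an adjusted p under 0.05 in limma with Benjamini-Hochberg adjustment over all 14972 genes, and log2 fold changes are on the log2(TPM + 1) scale.

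At the entry of the cycle, Cs was at 175, 165 and 167 TPM in the 3 wild-type cisplatin kidneys and at 160, 162 and 135 TPM in the 3 FAN1KO cisplatin kidneys. All 3 FAN1KO values lay below all 3 wild-type values, yet by a log2 fold change of only -0.15 (95% interval -0.38 to 0.08, limma adjusted p = 0.311). In the saline groups Cs was at 178, 178 and 149 TPM in wild-type and at 156, 160 and 175 TPM in FAN1KO kidneys.

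NAD-dependent isocitrate dehydrogenase is built from the products of Idh3a, Idh3b and Idh3g and makes the first NADH of the cycle. Idh3b was at 386, 428 and 414 TPM in wild-type cisplatin kidneys and at 287, 292 and 274 TPM in FAN1KO cisplatin kidneys, against 403, 433 and 412 TPM in wild-type saline and 409, 469 and 433 TPM in FAN1KO saline. Only the FAN1KO cisplatin kidneys were low, and the fall against wild-type was -0.52 on the log2 scale (SE 0.0863, limma adjusted p = 0.00292). Idh3g was at 449, 432 and 429 TPM in wild-type cisplatin kidneys and at 301, 302 and 349 TPM in FAN1KO cisplatin kidneys, with 441 to 460 TPM in wild-type saline and 440 to 473 TPM in FAN1KO saline. Its change was -0.46 (SE 0.0869, limma adjusted p = 0.00517). Idh3a gave 116, 129 and 126 TPM in wild-type cisplatin and 104, 110 and 92.2 TPM in FAN1KO cisplatin kidneys, values that did not overlap. Its spread in the saline groups was wide, 102 to 144 TPM in wild-type and 116 to 158 TPM in FAN1KO. In every group its lowest value was that of the library with high Y-linked RNA. The log2 fold change of -0.28 did not pass the test (95% interval -0.61 to 0.06, limma adjusted p = 0.202).

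The 2-oxoglutarate dehydrogenase complex takes its decarboxylating subunit from Ogdh and its succinyltransferase from Dlst. Dlst showed the tighter separation, with 301, 266 and 292 TPM in wild-type cisplatin kidneys and 205, 197 and 206 TPM in FAN1KO cisplatin kidneys, a change of -0.49 (SE 0.0874, limma adjusted p = 0.00394). Ogdh was at 161, 144 and 142 TPM in wild-type cisplatin and at 117, 129 and 117 TPM in FAN1KO cisplatin kidneys. Its change of -0.30 (SE 0.0877, limma adjusted p = 0.0332) was the smallest of the 6 called. The Ogdh call was lost when wild-type cisplatin mouse 1 (adjusted p = 0.115) or 2 (0.0543), or FAN1KO cisplatin mouse 1 (0.113) or 3 (0.0723), was left out of limma, and also in the 8 libraries with little Y-linked RNA (0.0711), with only the 6 libraries of the comparison (0.0932) and without a mean-variance trend (0.0592), whereas the other 5 calls stood in each of these fits.

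Suclg1 encodes the alpha subunit shared by the ATP- and GTP-forming succinyl-CoA ligases, which carry out the cycle's substrate-level phosphorylation. It was at 553, 481 and 480 TPM in wild-type cisplatin kidneys and at 326, 351 and 357 TPM in FAN1KO cisplatin kidneys, and its change of -0.55 (SE 0.0971, limma adjusted p = 0.00397) was the most negative of the 9. Fh1, fumarase, which hydrates fumarate to malate, was at 270, 258 and 282 TPM in wild-type cisplatin and at 182, 194 and 188 TPM in FAN1KO cisplatin kidneys. It changed by -0.52 (SE 0.0859, limma adjusted p = 0.0029), and the highest FAN1KO cisplatin kidney lay below the lowest kidney of each other group, whose values spanned 252 to 292 TPM.

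Mdh2, the mitochondrial malate dehydrogenase that closes the cycle by making oxaloacetate, did not show this separation. It was at 646, 634 and 636 TPM in wild-type cisplatin kidneys and at 591, 693 and 589 TPM in FAN1KO cisplatin kidneys, so that 1 FAN1KO kidney lay above and the other 2 below every wild-type one. The log2 fold change was -0.04 (95% interval -0.26 to 0.19, limma adjusted p = 0.823). The lower end of that interval lies above the estimates for the 6 genes called lower. The interval of Ogdh, -0.49 to -0.11, still overlapped it, and those of Idh3b, Idh3g, Dlst, Suclg1 and Fh1 did not. Differences between genes were not tested in limma.

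Counted by separation alone, 8 of the 9 genes, all but Mdh2, had every FAN1KO cisplatin kidney below every wild-type cisplatin kidney, a pattern shown in this direction by 8.60% of all genes tested. The exact two-sided permutation test of 3 against 3 mice gave its smallest possible p, 0.1, for each of these 8 genes. Over all genes tested the middle log2 fold change was 0.24, so a typical gene was higher in FAN1KO cisplatin kidneys on the TPM scale and the median of the 9 genes, -0.46, lay further below that typical gene than below 0. Rescaling the libraries so that the median ratio of genes was centred brought the median of all genes to -0.0085 and that of the 9 genes to -0.75. It called 8 of the 9 genes lower, adding Cs (-0.44) and Idh3a (-0.56) and leaving Mdh2 (-0.33) uncalled, and it cut the share of calls that were higher over all genes from 81.8% to 54.6%.

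**Figure D1:**
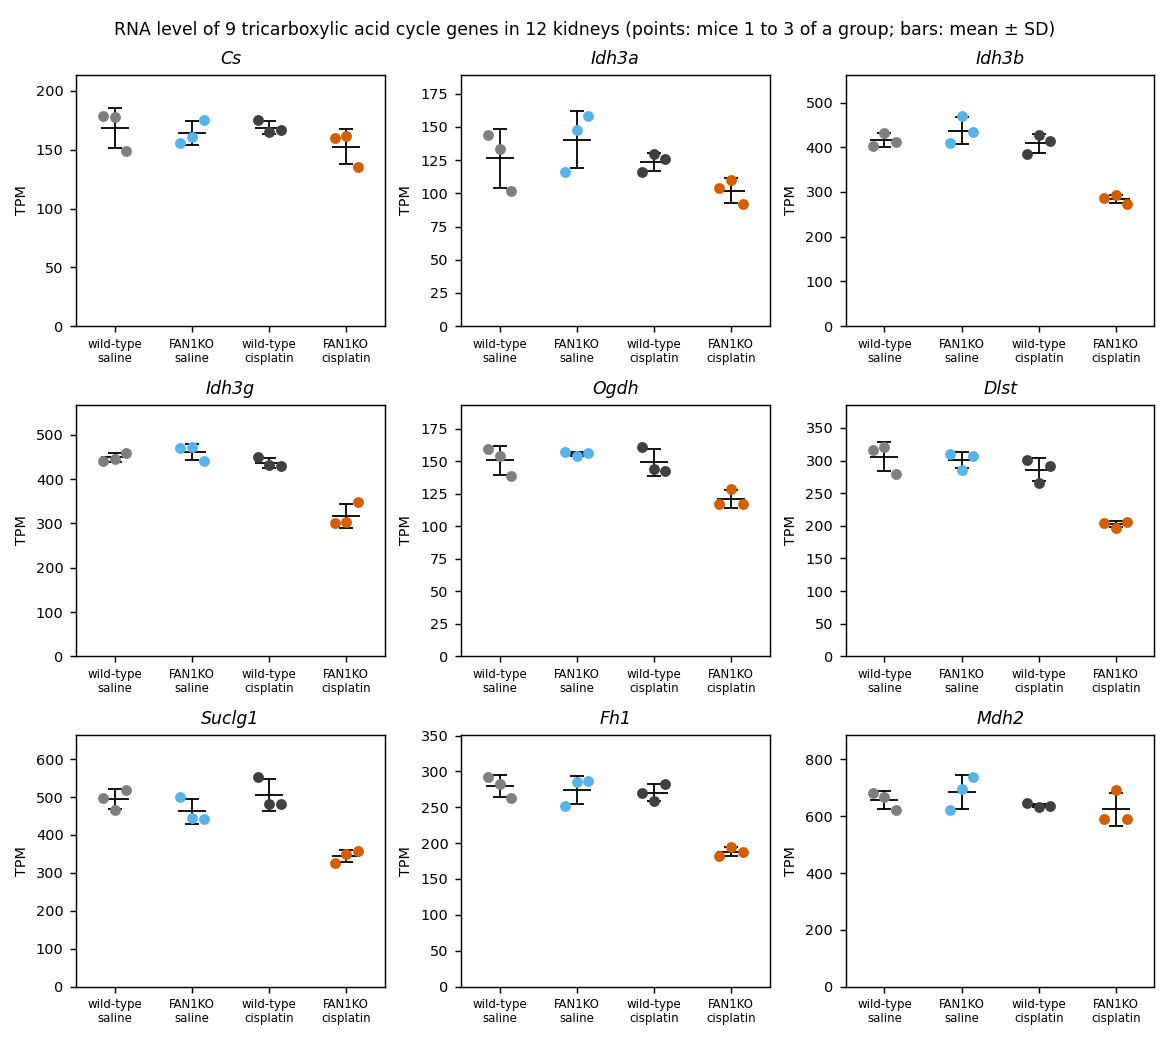
RNA level in TPM (vertical axis, from 0) of each of the 9 cycle genes in the 12 kidneys, by group, with each point a mouse and the bars the mean and SD of 3 mice. The FAN1KO cisplatin kidneys sit lowest for Idh3b, Idh3g, Ogdh, Dlst, Suclg1 and Fh1, whereas for Mdh2 they reach 693 TPM and overlap every other group.

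Markers of the proximal tubule, the target of the Fan1 deletion, were mostly lower in the same comparison. Of 12 proximal tubule markers, 9 were lower in FAN1KO than in wild-type cisplatin kidneys in limma, against 4.37% of all genes. Among the 9, Lrp2, the endocytic receptor megalin, was at -1.44 and Hnf4a, a transcription factor of proximal tubule identity, at -0.52. The median log2 fold change of the 12 markers was -1.03. Their summed level was 11335 to 13139 TPM in wild-type saline, 13325 to 14698 in FAN1KO saline, 10636 to 12089 in wild-type cisplatin and 3802 to 7405 in FAN1KO cisplatin kidneys, and none of the 12 was at 0. The sum of the 9 cycle genes was 2944 to 3114, 2990 to 3136, 2937 to 3057 and 2272 to 2431 TPM in the same order of groups. Among the FAN1KO cisplatin kidneys, mouse 3 kept the most proximal tubule marker RNA (7405 TPM against 3802 and 4412). Its 9 cycle genes summed to 2309 TPM, between the 2272 and 2431 TPM of the other 2 kidneys. Mouse 3 was also the library with high Y-linked RNA in this group (mean log2(TPM + 1) of 3.93), and this contrast rests on that 1 kidney.

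Red blood cell genes were lower still, 4 of the 4 tested, with a summed level of 6.56 to 73.3 TPM in FAN1KO cisplatin against 2318 to 6571 TPM in wild-type cisplatin kidneys. Collecting duct markers were called higher for Aqp2 and Aqp3 of 6 (summed 1069 to 1686 against 431 to 826 TPM). Macrophage markers were called higher for Cd68 of 6, and their sums overlapped (113 to 311 against 44.5 to 117 TPM). Over all genes tested 4.37% were called lower and 19.6% higher, so 1 marker called higher in such a short list is near the general share. Thick ascending limb, podocyte, endothelium and fibroblast lists had no member called. All 4 endothelium markers nevertheless had estimates below 0, with a median log2 fold change of -1.01. Their sums overlapped between the genotypes (18.2 to 64.1 TPM in FAN1KO against 35.0 to 149 TPM in wild-type cisplatin kidneys). Pvalb of 3 distal convoluted tubule markers was lower, and Cd8a of 4 tested lymphocyte markers and the muscle gene Acta1 were higher. The markers of skeletal muscle and brown fat summed to at most 2.99 and 2.96 TPM in any kidney. RNA from the mitochondrial genome made up 18.3% to 21.2% of TPM in wild-type cisplatin and 10.2% to 16.7% in FAN1KO cisplatin kidneys. The part of these differences in cell type markers in the result for the cycle genes was not tested.

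**Figure D2:**
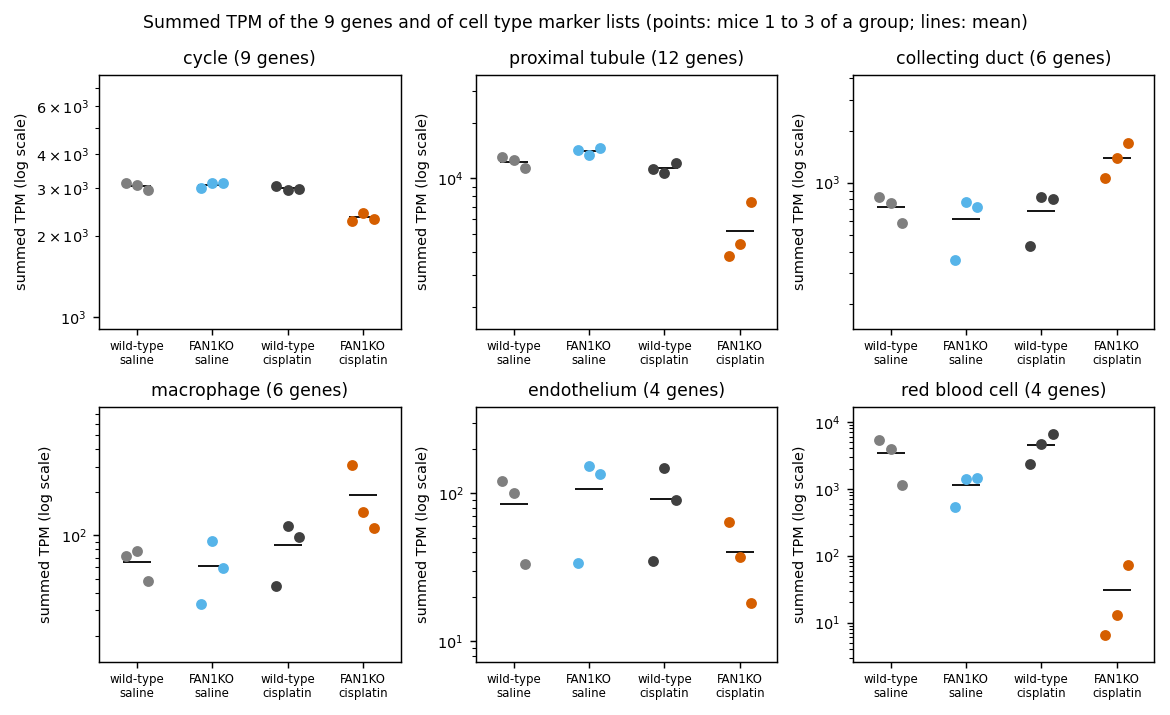
Summed TPM (vertical axis, log scale) of the 9 cycle genes and of 5 cell type marker lists in each kidney, by group, with points for mice and a line at the mean. In FAN1KO cisplatin kidneys the cycle genes reach at most 2431 TPM, proximal tubule markers at most 7405 TPM and red blood cell genes at most 73.3 TPM, each below every other kidney, while collecting duct markers are at least 1069 TPM and above every other kidney.

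Saline-treated kidneys ask whether the genotypes differed without cisplatin. None of the 9 genes was called there in limma and none reached an unadjusted p under 0.05, against 0.768% and 8.38% of all genes tested, and voom on recovered reads likewise called 0. The 9 log2 fold changes ran from -0.10 (Suclg1) to 0.15 (Idh3a), with 4 below 0 and 5 above, and in no gene were the genotypes separated, which 12.5% of all genes were in either direction. The intervals leave room for modest changes: that of Fh1 was -0.22 to 0.16 and that of Idh3b -0.12 to 0.26, neither of which reaches the size of their change under cisplatin.

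Within FAN1KO mice, cisplatin against saline gave the complementary view. Here 7 of the 9 genes fell, all but Cs and Mdh2, where 4.90% of all genes were called lower and 34.9% higher in limma. Idh3b fell most, from 437 ± 30.1 to 284 ± 9.46 TPM (SD, n = 3 each), by 0.62 on the log2 scale (adjusted p = 0.000632). Dlst changed by -0.57, Fh1 by -0.54 and Idh3g by -0.54, and Suclg1 by -0.42 and Ogdh by -0.36, with limma adjusted p between 0.00101 and 0.00867. Idh3a, the most variable of the 9, fell by 0.45 from 141 ± 21.8 to 102 ± 9.16 TPM (limma adjusted p = 0.0363). Its call was lost when FAN1KO saline mouse 2 (adjusted p = 0.0916) or 3 (0.119), or FAN1KO cisplatin mouse 1 (0.0848), 2 (0.0545) or 3 (0.0994), was left out of limma. Cs at -0.11 (adjusted p = 0.433) and Mdh2 at -0.13 (0.32) passed only after median-ratio scaling, at -0.54 and -0.57 (limma adjusted p = 0.0118 and 0.0164), where the median of all genes moved from 0.37 to -0.0061 and the share of calls that were higher from 87.7% to 53.3%. All 3 treated kidneys were below all 3 saline kidneys in the same 7 genes, a separation that 7.43% of all genes showed in this direction. This comparison shares the 3 FAN1KO cisplatin kidneys with the comparison of genotypes under cisplatin, and is not a second set of mice.

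In wild-type mice given the same cisplatin course no such fall was detected. None of the 9 genes was called and none reached an unadjusted p under 0.05 in limma, where 0.0601% and 3.00% of all genes did, and voom on recovered reads called 0 as well. The log2 fold changes lay between -0.09 (Dlst) and 0.03 (Suclg1), and in no gene were treated and saline kidneys separated, against 6.28% of all genes in either direction. For Idh3b the interval of the wild-type change was -0.21 to 0.17, and for Fh1 -0.24 to 0.14.

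The difference between these responses was tested directly as the genotype by cisplatin interaction. It passed for 4 of the 9 genes in limma, Idh3b at -0.59 (adjusted p = 0.024), Idh3g at -0.50 (0.0422), Fh1 at -0.49 (0.0423) and Dlst at -0.47 (0.0492), where 1.02% of all genes passed in this direction. Suclg1 at -0.45 (limma adjusted p = 0.0752) and Ogdh at -0.35 (0.113) reached an unadjusted p under 0.05 only, a level that 25.1% of all genes reached, and the estimates for Cs, Idh3a and Mdh2 were -0.12, -0.43 and -0.09. Leaving out any 1 of the 12 libraries kept the estimates of the 4 called genes between -0.64 and -0.41, but it kept 0 to 2 of the calls. Idh3b lost its call without wild-type saline mouse 1, FAN1KO saline mouse 3, wild-type cisplatin mouse 2, or FAN1KO cisplatin mouse 1 or 2 (limma adjusted p at most 0.0627). Idh3g kept its call only without FAN1KO cisplatin mouse 3 (0.0233), Fh1 only without FAN1KO saline mouse 1 (0.0476), and Dlst in none of the 12 fits (0.057 to 0.117).

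**Figure D3:**
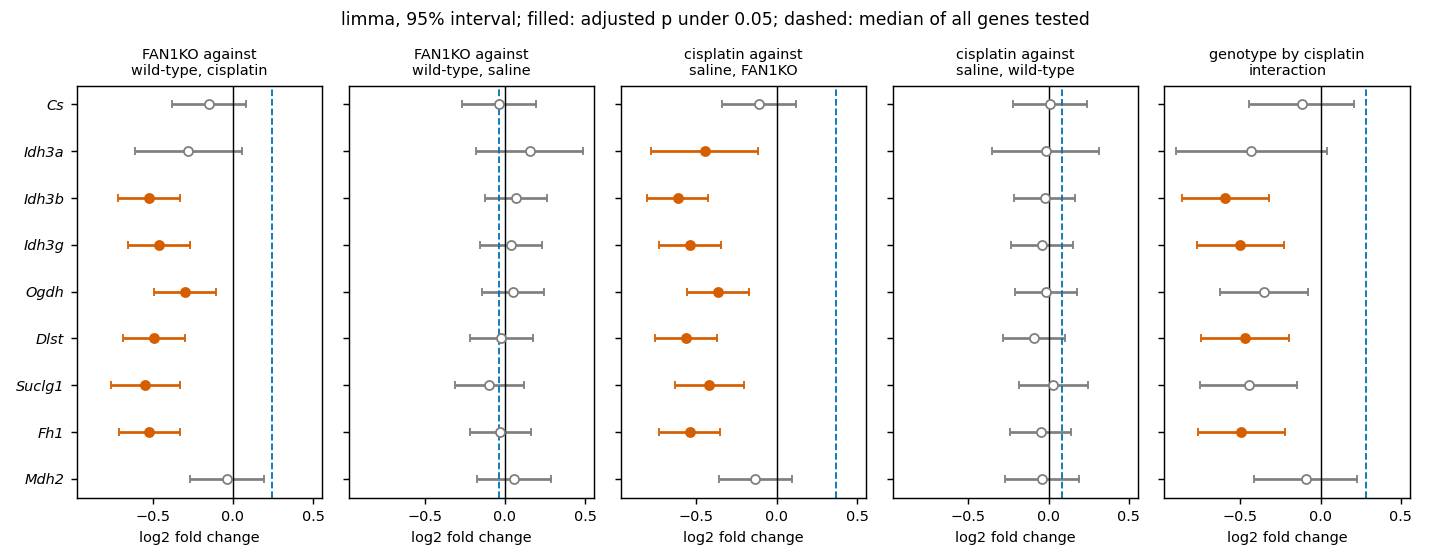
log2 fold change of the 9 cycle genes (horizontal axis, point and 95% interval from limma) in 4 comparisons of groups and the interaction, with filled points for adjusted p under 0.05 and a dashed line at the median of all genes tested. The comparisons with FAN1KO cisplatin kidneys hold 6, 7 and 4 filled points, all to the left of 0, and the comparisons without them hold 0.

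Around the 9 genes, 52 further genes of the pathway in 7 lists were counted in the comparison of genotypes under cisplatin. Of these 25 were lower and 2 higher in limma (4.37% and 19.6% of all genes), with a median log2 fold change of -0.40. This count depended on the libraries more than that of the 9 genes did: it went from 27 to 16 without wild-type cisplatin mouse 1, to 12 without FAN1KO cisplatin mouse 1, to 15 without FAN1KO cisplatin mouse 2, and to 15 with only the 6 libraries of the comparison, and it was 36 with a Y-linked covariate. Between genotypes under saline none of the 52 was called in limma and 4 had an unadjusted p under 0.05 (0.768% and 8.38% of all genes). By cisplatin in wild-type kidneys none was called and 2 had such a p (0.0601% and 3.00% of all genes). By cisplatin in FAN1KO kidneys 24 were lower and 4 higher (4.90% and 34.9% of all genes).

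Of 5 further enzyme genes of the cycle itself, 4 were lower and 1 was higher, where 4.37% and 19.6% of all genes were. A single higher gene among so few is near that share. The NADP-dependent Idh2 was at -0.44 and Dld, the dihydrolipoamide dehydrogenase shared by the 2-oxoacid complexes, at -0.50 (limma adjusted p = 0.0158 and 0.00335). The partners of Suclg1 were lower too: Sucla2, the beta subunit of the ATP-forming ligase, went from 190 ± 14.4 to 113 ± 4.04 TPM (-0.74, limma adjusted p = 0.000723) and Suclg2, that of the GTP-forming ligase, from 98.0 ± 33.5 to 56.6 ± 1.22 TPM (-0.73, adjusted p = 0.0256). Ogdhl, a relative of Ogdh, was higher at 2.85 ± 0.431 against 0.983 ± 0.508 TPM (limma adjusted p = 0.0412), a level far under the 121 TPM of Ogdh in the same FAN1KO cisplatin kidneys. Of the succinate dehydrogenase genes, which join the cycle to the respiratory chain, Sdha (-0.66), Sdhb (-0.51) and Sdhc (-0.38) were lower (limma adjusted p at most 0.0158), and Sdhd was listed at only 1.49 to 1.71 TPM in the cisplatin group means and did not pass.

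Upstream, 4 of 6 genes of pyruvate entry were lower, where 4.37% of all genes were. They were the carrier subunit Mpc1 (-0.62) and the pyruvate dehydrogenase subunits Pdha1 (-0.38), Pdhb (-0.35) and Dlat (-0.37), with limma adjusted p from 0.0161 to 0.0463. Of the 7 kinase and phosphatase genes that switch pyruvate dehydrogenase, Pdk2 (-0.68) and Pdp2 (-0.67) were lower. Pdk4, a kinase that inactivates the enzyme, was at 43.6, 45.2 and 20.2 TPM in FAN1KO cisplatin and 6.06, 21.6 and 14.5 TPM in wild-type cisplatin kidneys, which overlap (1.38, limma adjusted p = 0.0775). Against FAN1KO saline kidneys Pdk4 rose by 2.18 (limma adjusted p = 0.00848).

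Of 13 genes that feed or drain the cycle, 6 were lower and 1 was higher, where 4.37% and 19.6% of all genes were. A single higher gene in such a short list does not stand out from that share. The lower ones with the largest change were Abat, the GABA transaminase (-1.28), Mmut, the methylmalonyl-CoA mutase (-1.01), Pcx, pyruvate carboxylase (-0.94), and Pcca of propionyl-CoA carboxylase (-0.89), with limma adjusted p from 0.000595 to 0.0267. Pck2, the mitochondrial phosphoenolpyruvate carboxykinase, went the other way at 25.2 ± 3.42 against 12.0 ± 3.81 TPM (1.05, limma adjusted p = 0.0182). Of 7 cytosolic counterparts only Mdh1 (-0.67) and Aco1 (-0.46) were lower, while cytosolic Idh1 at 0.22 did not pass (limma adjusted p = 0.251). Of 10 carriers of cycle intermediates 4 were lower, most of all the oxodicarboxylate carrier Slc25a21 (-1.36) and the dicarboxylate cotransporter Slc13a3 of the plasma membrane (-1.16), and none was higher.

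**Figure D4:**
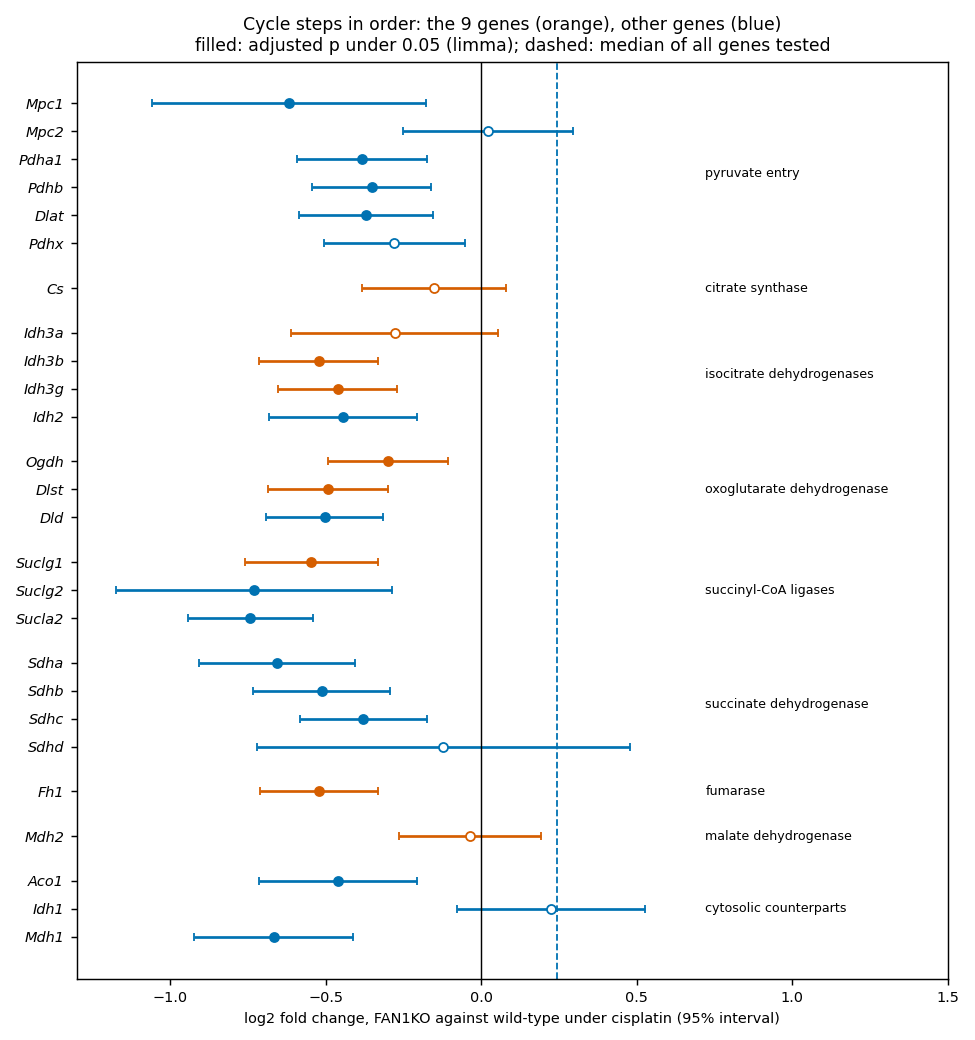
log2 fold change of FAN1KO against wild-type under cisplatin (horizontal axis, point and 95% interval) for genes in the order of the cycle's steps, with the 9 genes in orange, other genes in blue, filled points for limma adjusted p under 0.05 and a dashed line at the median of all genes tested, 0.24. Most steps lie to the left of 0, with the open points of Mpc2 (0.02), Sdhd (-0.12) and Mdh2 (-0.04) near it and that of Idh1 (0.22) to its right.

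Ratios of 2 genes within a kidney do not depend on how libraries are scaled, and 9 such ratios were compared in 4 comparisons of groups. With 3 against 3 mice the exact two-sided permutation test cannot go below p = 0.1, and the smallest value after Benjamini-Hochberg adjustment over the 36 tests was 0.225, so none passed. Under cisplatin 5 of the 9 ratios did not overlap between the genotypes, and under saline 5 did not either, although no single gene among the 9 was separated there. The 5 under saline were Mdh2 to Mdh1, Mdh2 to Fh1 and Ogdh to Dlst, higher in FAN1KO kidneys, and Dlst to Dld and Suclg1 to Sucla2, lower in them. Dld, which is outside the 9 genes, was itself separated under saline, at 222 to 253 TPM in wild-type and 263 to 276 TPM in FAN1KO kidneys. How often ratios of other genes separate was not tested. Mdh2, the mitochondrial malate dehydrogenase, stood to Mdh1, the cytosolic form, at 0.58 to 0.611 in wild-type saline, 0.627 to 0.644 in FAN1KO saline and 0.588 to 0.636 in wild-type cisplatin kidneys, and at 0.994, 0.946 and 0.912 in FAN1KO cisplatin kidneys. The ratio of Mdh2 to Fh1, the step before it, was 3.25, 3.57 and 3.14 in FAN1KO cisplatin kidneys and at most 2.58 elsewhere.

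Within complexes the shifts were smaller. The ratio of Ogdh to Dlst was 0.598 ± 0.0485 in FAN1KO cisplatin and 0.522 ± 0.0296 in wild-type cisplatin kidneys, without overlap of the groups, and 0.507 to 0.539 in FAN1KO saline against 0.48 to 0.507 in wild-type saline kidneys, again without overlap before rounding. Idh3g to Idh3b overlapped, at 1.12 ± 0.135 against 1.07 ± 0.0822, a difference smaller than the spread between mice. Idh3a to Idh3b was 0.336 to 0.377 against 0.3 to 0.304, but the saline groups, at 0.247 to 0.365, spanned nearly all of these values. Suclg1 to Sucla2 was 2.87 to 3.21 in FAN1KO cisplatin against 2.6 to 2.68 in wild-type cisplatin kidneys, while under saline the order was opposite, with 2.39 to 2.48 in FAN1KO and 2.48 to 2.99 in wild-type kidneys.

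**Figure D5:**
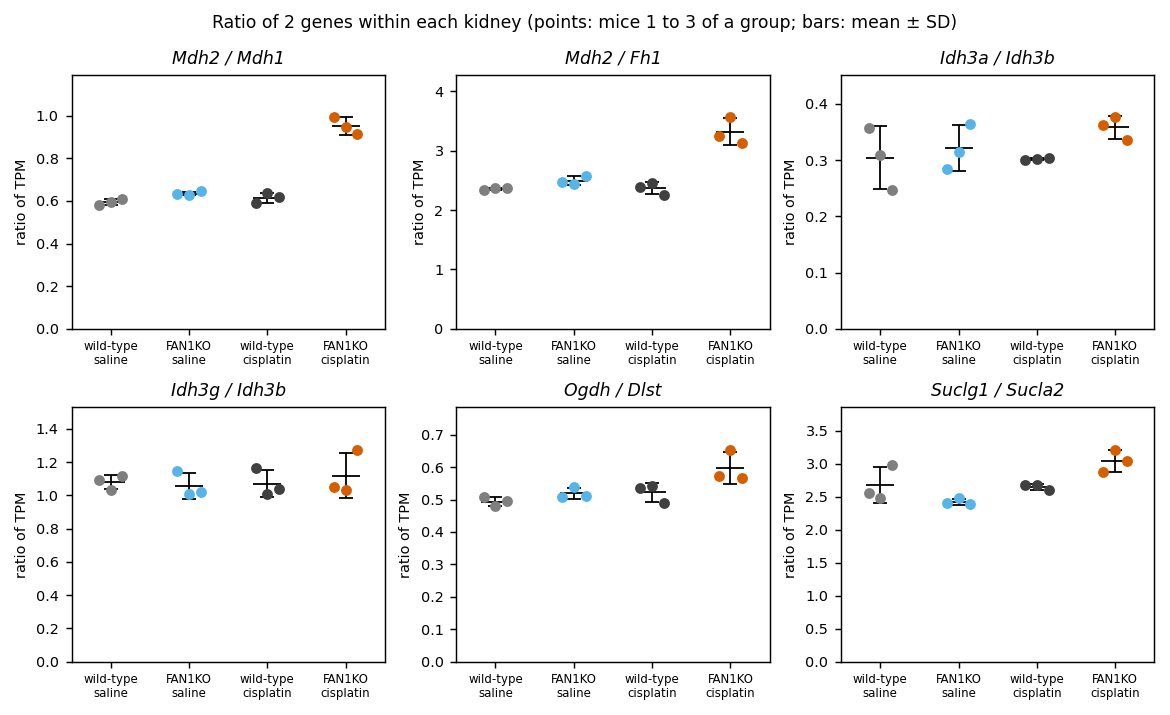
Ratio of the TPM of 2 genes (vertical axis, from 0) in each kidney, by group, with points for mice and bars for mean and SD of 3 mice. The ratios of Mdh2 to Mdh1 and to Fh1 are highest in the 3 FAN1KO cisplatin kidneys (0.912 to 0.994 and 3.14 to 3.57), while Idh3g to Idh3b overlaps between all groups.

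Across the 12 kidneys the 9 genes varied together to different degrees. The 36 pairwise Pearson correlations of log2(TPM + 1) ran from 0.19 to 0.95 with a median of 0.76, and 16 of them exceeded 0.8. With group means removed they ran from -0.77 to 0.79 with a median of 0.23 and none exceeded 0.8. Against the mean of the other 8 genes, Fh1 (0.97), Ogdh (0.95), Dlst (0.92) and Idh3b (0.91) correlated most and Mdh2 (0.56) and Cs (0.65) least. All these points share the same 12 libraries and their TPM totals, and the values are given as a description.

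Outside the 9 genes, those whose profile over the 12 kidneys was most like the mean profile of the 9 were sought among all genes tested. The first 5 were Apoo-ps (r = 0.99), Uqcrc2 (0.988), Mdh1 (0.984), Immt (0.974) and 2310081J21Rik (0.972). Uqcrc2, a core subunit of respiratory complex III, went from 418 ± 15.8 to 272 ± 7.08 TPM between wild-type and FAN1KO cisplatin kidneys, and Immt, a scaffold of the mitochondrial inner membrane, from 218 ± 9.66 to 177 ± 3.30 TPM. Apoo-ps is named as a pseudogene of Apoo, which encodes another inner membrane protein, and its reads may be shared with its parent gene.

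The table of RefSeq promoter windows used here (GRCm38.p6, from 250 bases before to 50 bases after a start site) held 13 windows for 8 of the 9 genes, all but Idh3a. Of these, 3 are shown because they hold a motif searched for and contrast Dlst and Idh3g, which fell, with Mdh2, which did not pass. Capitals mark the matched motif letters in the sequence of the gene's strand.

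Dlst, chr12:85110583-85110882, plus strand: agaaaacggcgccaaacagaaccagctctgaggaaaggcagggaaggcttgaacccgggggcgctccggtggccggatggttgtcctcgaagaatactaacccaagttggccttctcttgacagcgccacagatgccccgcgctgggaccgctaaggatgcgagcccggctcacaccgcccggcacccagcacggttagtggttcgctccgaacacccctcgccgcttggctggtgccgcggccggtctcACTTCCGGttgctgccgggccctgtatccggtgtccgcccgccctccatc
Idh3g, chrX:73786848-73787147, minus strand: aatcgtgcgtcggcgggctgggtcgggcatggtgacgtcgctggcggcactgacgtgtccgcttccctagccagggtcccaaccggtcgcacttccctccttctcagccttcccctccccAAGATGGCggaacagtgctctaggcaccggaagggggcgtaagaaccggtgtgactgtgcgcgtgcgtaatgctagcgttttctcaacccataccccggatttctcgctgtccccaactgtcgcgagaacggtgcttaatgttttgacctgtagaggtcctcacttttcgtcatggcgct
Mdh2, chr5:135778399-135778698, plus strand: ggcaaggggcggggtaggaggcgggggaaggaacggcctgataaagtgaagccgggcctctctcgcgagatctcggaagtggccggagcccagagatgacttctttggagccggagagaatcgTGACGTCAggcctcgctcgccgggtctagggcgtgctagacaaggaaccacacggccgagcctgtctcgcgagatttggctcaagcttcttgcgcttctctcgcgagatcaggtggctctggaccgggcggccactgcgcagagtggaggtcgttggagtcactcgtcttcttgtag

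The motifs were searched on both strands in all 32851 windows of the table. The Dlst window held the ETS letters CCGGAAGT, read here on the opposite strand as ACTTCCGG beginning at the start site, which 3.887% of all windows held. The Idh3g window held the YY1 letters AAGATGGC 130 bases before its start site (2.749% of windows). The Mdh2 window held the cyclic AMP response element TGACGTCA 127 bases before its start site (1.79% of windows), and so did 3 overlapping windows of Ogdh, which fell. The letters of the estrogen-related receptor element (TNAAGGTCA, 1.282%), NRF1 (4.603%) and HNF4 (TGNACTTTG, 1.412%) were found in none of the 13 windows. Base composition of these windows was 49.3% to 72.3% G and C, against a median of 52.7% over all windows. None of the motifs searched was found in more than 1 of the genes that fell, and a match or its absence describes the letters only.

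On GRCm38.p6, the RefSeq patch release of the mm10 build, the 9 genes lie on 9 different chromosomes. Those that were called lower between genotypes under cisplatin are Idh3b at chr2:130279309-130284451, Idh3g at chrX:73778963-73786897, Ogdh at chr11:6291597-6359094, Dlst at chr12:85110822-85134091, Suclg1 at chr6:73248505-73276907 and Fh1 at chr1:175601378-175625635. The other 3 are Cs at chr10:128337727-128362482, Idh3a at chr9:54586511-54604662 and Mdh2 at chr5:135778649-135790386. Some of them overlap others in the annotation, and the deposited processing does not state strand. Idh3b and Nop56 overlap by 5 bases, and Nop56, a nucleolar protein gene, had group means of 15.7 to 32.2 TPM. Dlst overlaps Prox2 by 64 bases, whose highest value was 1.64 TPM, and Cs, Ogdh and Suclg1 overlap non-coding genes or a pseudogene that had no value in the table. Csl, a close relative of Cs that could share its reads, was at 0.808 to 1.79 TPM.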

How the data were processed

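The 12 libraries were whole-kidney RNA sequencing of 3 mice in each of 4 groups, with groups and replicate numbers from the sample labels, which do not say whether mice shared a litter. The authors deposited 1 table of TPM by NCBI Gene number, each library summing to 1000000. The submitters' processing notes name mm10 and limma. The aligner, annotation and strand setting are not given in the sources used here. Names came from RefSeq genes of GRCm38.p6, which named 25275 of the 27179 identifiers.

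Tests were run on log2(TPM + 1) for the 14972 genes that reached 1 TPM in 3 or more libraries. The 12 libraries entered a single limma model of 4 group means (limma 3.58.1, R 4.3.3) with moderated variances and a mean-variance trend, and p-values were adjusted by Benjamini-Hochberg over all genes, with a threshold of 0.05. Whole reads were recovered from the steps of the TPM in each library (all 232991 values above 0 came out whole within 0.02 reads), and served for depth and for an alternative fit by voom. That fit called 667 genes lower and 3032 higher between genotypes under cisplatin. The code was tested on simulated data. Python 3.11.15 did the rest.

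All 9 genes are named, and of the pathway lists up to 4 called genes with the largest changes, plus Dld, Sucla2, Suclg2 and Ogdhl, and the 5 genes of most similar profile. Genes named outside these rules (Idh2, Sdhd, Pcca, Pdk4, Idh1, Mpc2, Nop56, Prox2, Csl) were chosen after their values were seen. Of the lists, 2 genes are not reported here and were left out of the counts. The members and lists were chosen with earlier results of these data known. Alternatives were another pseudocount, no filter, fewer libraries, other scalings, a Y-linked covariate, no trend, a replicate block, voom and leaving out each library.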

Additional observations from a re-analysis of the deposited data

Results flagged for a closer look

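The effect of cisplatin differed between FAN1KO and wild-type kidneys by limma's interaction term for 13 of the 61 cycle and pathway genes (FAN1KO response minus wild-type response, log2 scale). Among the 9 cycle genes these were Idh3b (-0.59), Idh3g (-0.50), Dlst (-0.47) and Fh1 (-0.49). Among the surrounding genes they were Dld (-0.67), Sucla2 (-0.78), Sdha (-0.70), Pdha1 (-0.51), Pcca (-0.98), Mmut (-1.03), Abat (-1.23), Mdh1 (-0.63) and Slc13a3 (-1.59). All 13 were more negative in FAN1KO mice, and 9 of the 52 surrounding genes passed, where 1.02% of all genes passed in this direction. Leaving out any 1 of the 12 libraries kept the limma call of Dld, Sucla2, Pcca, Mmut and Slc13a3 in all 12 fits, with adjusted p at most 0.0477. Idh3b and Abat kept it in 7 of 12 fits, Sdha in 2, Idh3g, Fh1 and Pdha1 in 1 each, and Dlst and Mdh1 in 0.

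Under saline Slc13a3 was at 427 to 452 TPM in wild-type and 493 to 706 TPM in FAN1KO kidneys, ranges that did not overlap, although the gene was not called there.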

How the results depend on the processing

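Over 11 kinds of alternative the number of the 9 genes called between genotypes under cisplatin stayed between 5 and 8, all lower, and by cisplatin in FAN1KO mice between 6 and 9, while both other comparisons of groups gave 0 in each. The interaction was less firm: 4 calls became 7 with a Y-linked covariate, 1 with no mean-variance trend, 1 with the replicate block, 2 with voom, and 0 to 2 when a library was left out. Among pathway genes, 27 calls became 15 with only the libraries of the comparison, 36 with a Y-linked covariate and 12 to 27 when a library was left out. The cause of these shifts was not tested.

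Same-numbered mice did not deviate together throughout. In the 4 comparisons the correlation of the mice numbered 2 was 0.13 to 0.60. That of those numbered 1 was -0.61 to -0.38 and that of those numbered 3 was -0.60 to -0.31. The library with high Y-linked RNA was number 3 in wild-type saline and FAN1KO cisplatin kidneys. It was number 1 in FAN1KO saline and wild-type cisplatin kidneys. Mice numbered 1 and 3 thus always set such a library against one without it, and mice numbered 2 never did. The correlations therefore cannot decide whether numbers mark a pairing. The main fit took none, since same-numbered mice were different animals. The replicate block left 6 genes called between genotypes under cisplatin and 6 by cisplatin in FAN1KO mice, where Idh3a had a limma adjusted p of 0.0504.

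Directions turned only for genes not called. Under median-ratio scaling Cs, Dlst and Fh1 were 0.017, 0.031 and 0.024 between genotypes under saline, and Cs and Suclg1 -0.088 and -0.069 by cisplatin in wild-type mice. Without mitochondrially encoded genes Cs and Suclg1 were -0.022 and -0.0031 in the latter, and voom gave Cs -0.021. The 8 libraries with little Y-linked RNA, chosen after seeing the data, gave Mdh2 0.011 between genotypes under cisplatin, Ogdh -0.014 between genotypes under saline, Cs -0.10, Idh3b 0.010 and Suclg1 -0.0033 by cisplatin in wild-type mice, and Cs 0.044 in the interaction. Leaving out a library gave ranges for Mdh2 of -0.11 to 0.0029 between genotypes under cisplatin. Between genotypes under saline the ranges were -0.12 to 0.0090 for Cs, -0.0086 to 0.094 for Ogdh, -0.083 to 0.016 for Dlst and -0.070 to 0.033 for Fh1. By cisplatin in wild-type mice they were -0.076 to 0.053 for Cs, -0.17 to 0.085 for Idh3a, -0.057 to 0.017 for Idh3b, -0.074 to 0.028 for Ogdh and -0.039 to 0.064 for Suclg1. Groups of 3 mice limit all these comparisons, and whole-kidney RNA does not say in which cells a level changed.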
